A study of Mus musculus with 48 samples.

Results

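The intermediate filament genes of astrocytes were followed in bulk RNA-seq of mouse cortex, hippocampus and olfactory bulb. The set held 8 of the 24421 gene symbols in each of the 6 deposited tables, picked by symbol: 4 glial filament genes (Gfap, Vim, Nes and Synm) and 4 neuronal filament genes (Ina, Nefl, Nefm and Nefh). The study asked how inhibitory input shapes astrocytes through Gabbr1, a subunit of the GABA-B receptor for the inhibitory transmitter GABA. Astrocytes of unstated genotype were collected at postnatal day 1 (P1), 7 (P7) and 14 (P14), with 3 libraries per age and region and 4 for cortex P14. At P28, Gabbr1 control and Gabbr1 cKO (conditional knockout) mice were compared, with 4 control and 4 cKO libraries of cortex, 2 control and 4 cKO of hippocampus, and 3 of each genotype of olfactory bulb. The labels give tamoxifen as treatment for all P28 hippocampus and olfactory bulb libraries, controls included, and for 2 control and 1 cKO cortex libraries that were deposited in a second round, and they name no Cre driver and no strain. Nothing in them says that libraries of a group came from separate animals, so the p-values measure the spread between these libraries, which may be technical.

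Intermediate filaments are rope-like polymers of coiled-coil proteins that give a cell its tensile strength, and each cell type builds them from its own members of the family. Neural progenitors use vimentin (Vim) and nestin (Nes), and maturing astrocytes add glial fibrillary acidic protein (Gfap), the classical astrocyte filament, while synemin (Synm) joins the polymer only together with a partner. Young neurons carry alpha-internexin (Ina), and axons are filled by the light, medium and heavy neurofilament proteins (Nefl, Nefm and Nefh).

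In GENCODE M21 on mm10, the 8 genes lay on 6 chromosomes. Gfap (chr11:102887336-102900912, minus strand) and Nefh (chr11:4938754-4948064, minus strand) shared chromosome 11, and Nefl (chr14:68083863-68089095, plus strand) lay inside the span of Nefm (chr14:68082590-68124846, minus strand). Vim (chr2:13573927-13582826, plus strand), Nes (chr3:87971078-87980451, plus strand), Synm (chr7:67730160-67759742, minus strand) and Ina (chr19:47014698-47025327, plus strand) were the only members on their chromosomes. The sources used here do not state whether counting used the strand, so reads of Nefl and Nefm, of Gfap and Gm26668, of Ina and Nt5c2, and of Synm with Ttc23 and Gm45102 cannot be told apart where these genes overlap. Promoter sequences of 5 members (Gfap, Vim, Nes, Synm and Ina) were matched in RefSeq (GRCm38.p6), and Nefl, Nefm and Nefh were not matched. These windows end at the start that RefSeq gives, which can differ from that of GENCODE. The Gfap window lies inside the GENCODE span of the gene, and the Vim window lies inside an untranslated exon region annotated by GENCODE.

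The 250 bases before the RefSeq start of Gfap, which rose with age in hippocampus and olfactory bulb, and of Nes and Ina, which fell with age in all 3 regions, are given below 5′ to 3′ on the strand of the gene. Capitals mark GGGCGG, the GC box, on either strand (printed CCGCCC where it lies on the opposite strand).
Gfap, chr11:102897201-102897450, minus strand: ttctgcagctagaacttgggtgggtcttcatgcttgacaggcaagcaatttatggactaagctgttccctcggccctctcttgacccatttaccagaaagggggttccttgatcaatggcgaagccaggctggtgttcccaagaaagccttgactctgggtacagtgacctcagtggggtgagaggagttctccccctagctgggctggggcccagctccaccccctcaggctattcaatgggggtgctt
Nes, chr3:87970843-87971092, plus strand: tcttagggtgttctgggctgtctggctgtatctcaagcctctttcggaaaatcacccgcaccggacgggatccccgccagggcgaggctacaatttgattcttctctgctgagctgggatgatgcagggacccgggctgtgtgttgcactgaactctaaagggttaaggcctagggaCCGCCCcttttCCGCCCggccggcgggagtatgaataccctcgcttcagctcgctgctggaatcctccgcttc
Ina, chr19:47014431-47014680, plus strand: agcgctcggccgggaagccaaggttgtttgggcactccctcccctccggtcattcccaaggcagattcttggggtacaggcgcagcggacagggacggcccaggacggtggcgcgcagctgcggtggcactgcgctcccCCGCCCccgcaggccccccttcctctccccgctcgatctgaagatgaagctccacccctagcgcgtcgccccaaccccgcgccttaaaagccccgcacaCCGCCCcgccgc

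GGGCGG was found at 2 places each in the windows of Nes and Ina and in none of the Gfap, Vim and Synm windows, against 32.7% of all 32851 promoters of that length. TATAAA was found only in the Vim window, ending 26 bases before the start (12.4% of all promoters). CCAAT was found at 2 places in the Vim window and 1 in the Synm window (33.8% of all promoters). The windows of the 5 members held no TGANTCA (6.75%), TTCCNGGAA (0.913%) or palindromic nuclear factor I motif (0.0365%), all searched on both strands. GC content of the windows was 55.6% for Gfap, 58.4% for Vim, 58.8% for Nes, 70.0% for Synm and 70.8% for Ina. A match is a run of letters, and no factor binding was measured.

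Library totals lay between 1773226 and 15008466 reads. All 16 astrocyte markers, among them Aldh1l1, Aqp4 and Slc1a3, were detected in every library, so the defining genes of the labelled cell type were present. Their summed normalized read count grew from 32896 to 42463 at P1 to 561921 to 621355 at P14 in cortex, from 15938 to 18818 to 461020 to 493354 in hippocampus, and from 6278 to 8651 to 155184 to 170987 in olfactory bulb. Over the same ages the sum of 14 neuron markers went from 11756 to 15863 to 2002 to 2341 in cortex, from 10180 to 12196 to 2605 to 2862 in hippocampus, and from 20703 to 24858 to 5079 to 6324 in olfactory bulb. The sum of 10 radial glia and progenitor markers moved from 31173 to 36044 to 6467 to 7117 (cortex) and from 16691 to 20089 to 10428 to 11003 (hippocampus), but from 5286 to 6288 up to 14440 to 19219 (olfactory bulb), the same directions as Vim. Their part in the changes below was not tested, and in bulk samples fewer cells of a type and less RNA per cell cannot be told apart. The ribosomal transcript Rn45s took 13.7% to 38.0% of reads, except in hippocampus P28 cKO replicate 2 (0.594%) and olfactory bulb P28 control replicate 2 (0.476%). Gabbr1 was lower in the cKO libraries of each region without overlap, at 89.8 to 211 against 927 to 1930 (cortex), 151.7 to 380 against 780 to 824 (hippocampus) and 63.6 to 99.5 against 184 to 318 (olfactory bulb).

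Between P1 and P14, filament genes did not move as one block. In cortex Vim, Nes, Ina and Nefm fell, in hippocampus Vim, Nes and Ina fell and Gfap rose, and in olfactory bulb Nes, Ina and Nefm fell while Gfap, Vim and Synm rose. These are 4 of 7 tested members in cortex, where 64.4% of all tested genes were called, 24% higher and 40.3% lower at P14. The hippocampus had 4 of 7, against 49.5% of all genes (21% higher, 28.5% lower). The olfactory bulb had 6 of 7, against 56.1% of all genes (24.8% higher, 31.4% lower). P1 and P14 libraries did not overlap for 63.7%, 54.7% and 62.2% of all genes in these regions, which is the background for each statement on overlap below. Nefh was not tested at these ages, because its mean was under the minimum of 10. A call is an adjusted p under 0.05 in limma, fitted over all genes on log2(normalized read count + 1), a scale that understates the change of low genes.

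Gfap, the filament by which astrocytes are most often recognised, started from very different levels. In olfactory bulb at P1 it stood at 1.79, 2.64 and 1.65 normalized reads, which are 5, 6 and 3 sequenced reads and 14 in all (95% Poisson interval 7.65 to 23.5, counting error only). At P7 the olfactory bulb values were 168, 175 and 16.0, and at P14 they were 565, 633 and 553. No P7 library overlapped P1 and no P14 library overlapped P7. The log2 fold change was 4.73 ± 0.72 (SE) from P1 to P7 (limma adjusted p = 0.00225) and 7.60 ± 0.72 from P1 to P14 (limma adjusted p = 7.31e-06), the latter larger than that of 99.9% of tested genes by absolute size. The P7 libraries were themselves far apart, with replicate 3 far below the others, and without it the change from P1 to P7 was 5.85.

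In hippocampus Gfap stood at 314, 190 and 297 at P1, at 913, 1661 and 1656 at P7 and at 1351, 1111 and 1238 at P14. All P7 and P14 libraries were above all P1 libraries. The rise came between P1 and P7, by a log2 difference of 2.38 (SE 0.24, limma adjusted p = 3.79e-05), and P14 did not differ from P7 beyond the spread (-0.14 ± 0.24, limma adjusted p = 0.692). In cortex Gfap stood at 251, 464 and 845 at P1, at 1273, 1129 and 665 at P7 and at 769, 719, 733 and 739 at P14. The 4 cortical P14 libraries lay close together inside the range of the P1 libraries. Cortical Gfap rose from P1 to P7 by 1.09 ± 0.33 (log2, SE, limma adjusted p = 0.0204), although the lowest P7 library lay under the highest P1 library. This call was lost in 5 of 17 alternatives, namely limma without the trend (adjusted p = 0.0604), the 2 ages alone (0.0644), and without P1 replicate 1 (0.65, adjusted p = 0.0745), P7 replicate 1 (0.91, 0.0846) or P7 replicate 2 (0.99, 0.0649). From P1 to P14 the difference of 0.68 ± 0.31 was not called (limma adjusted p = 0.0672). It was called with TMM scaling (0.96, adjusted p = 0.0156) and without cortex P1 replicate 3 (1.11, adjusted p = 0.00186), and was 0.24 without cortex P1 replicate 1.

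Vim, the filament of progenitors and immature astrocytes, fell in cortex and hippocampus. In cortex it stood at 1266, 1694 and 1936 at P1, at 1130, 1079 and 832 at P7 and at 211, 233, 366 and 227 at P14. Each age lay below the one before without overlap. The fall from P1 to P14 was -2.66 ± 0.19 (log2, SE, limma adjusted p = 4.81e-08). Hippocampal Vim followed the same course, at 1750, 1727 and 1468, then 734, 972 and 964, then 391, 279 and 353, a change of -2.28 ± 0.16 (limma adjusted p = 5.33e-07). Olfactory bulb went the other way. There Vim stood at 402, 504 and 402 at P1, at 296, 404 and 409 at P7 and at 735, 580 and 796 at P14. P1 and P7 overlapped, and P14 was above both. The rise from P1 to P14 was 0.68 ± 0.18 (limma adjusted p = 0.00726), and it was not called when reads were scaled to the library total without Rn45s (0.36, adjusted p = 0.104). The difference in direction between the regions was not tested, because the tables were scaled separately.

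Nes, the progenitor filament used as a marker of neural stem cells, had the steepest fall among the glial members in cortex. Cortical libraries held 2787, 3698 and 4695 at P1, 537, 445 and 383 at P7 and 66.6, 57.2, 128 and 68.0 at P14. No 2 ages overlapped. The change from P1 to P14 was -5.57 ± 0.24 (log2, SE, limma adjusted p = 4.65e-10), larger than that of 99.4% of tested genes by absolute size. Hippocampal Nes stood at 1467, 1188 and 1267, then 566, 626 and 708, then 106, 160 and 140 (P14 against P1 -3.28 ± 0.17, limma adjusted p = 4.31e-08). In olfactory bulb it was at 426, 517 and 408 at P1 and at 265, 395 and 559 at P7, which overlapped. It came down only by P14, to 137, 200 and 179 (-1.39 ± 0.25, limma adjusted p = 7.68e-04). The ratio of Nes to Vim within a library, which a single scaling factor per library cannot move, went from a log2 of 1.18 ± 0.08 (SD, n = 3) to -1.74 ± 0.22 (n = 4) in cortex between P1 and P14. In olfactory bulb it went from 0.05 ± 0.03 to -2.04 ± 0.45 (SD, n = 3 each) and in hippocampus from -0.34 ± 0.18 to -1.34 ± 0.54 (SD, n = 3 each). Nes declined relative to Vim in all 3 regions, without overlap between P1 and P14.

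Synm, which needs Vim or another partner to form filaments, was low from P1 to P14 and rose in olfactory bulb. It stood there at 12.5, 15.0 and 10.5 at P1, at 38.1, 40.7 and 31.4 at P7 and at 49.7, 38.6 and 128 at P14. No P14 library overlapped P1, and the change was 2.23 ± 0.43 (log2, SE, limma adjusted p = 0.0012). In cortex Synm ranged from 42.3 to 101 over the 10 libraries with no call between ages. In hippocampus it stood at 37.8, 22.7 and 38.1, then 85.1, 76.9 and 70.0, then 47.3, 8.82 and 46.6. The P7 libraries were above all P1 and P14 libraries, and neither step was called (limma adjusted p = 0.172 and 0.0699). At P28 hippocampal Synm stood at 255 and 179 in control and at 112, 131, 201 and 181 in cKO (tables scaled separately).

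Among the neuronal members, Ina had the most reads per kilobase at P1 in all 3 regions. In olfactory bulb it stood at 307, 276 and 258 at P1, at 222, 175 and 245 at P7 and at 19.9, 37.2 and 29.2 at P14. The groups did not overlap, and most of the fall came after P7 (-2.88 ± 0.25 from P7 to P14, log2, SE, limma adjusted p = 9.06e-06). In cortex it stood at 173, 184 and 160, then 58.3, 32.5 and 77.5, then 8.32, 16.98, 12.9 and 2.08, and fell at each step. The cortical change from P1 to P14 was -4.24 ± 0.49 (limma adjusted p = 4.93e-06). In hippocampus Ina stood at 96.5, 165 and 92.2, then 34.4, 30.03 and 45.4, then 0, 14.3 and 8.96. The P14 libraries rest on 0, 13 and 5 reads. The change from P1 to P14 was -4.42 ± 0.83 (limma adjusted p = 9.35e-04).

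Nefl and Nefm, the light and medium neurofilament subunits, overlap on chromosome 14, and where they do their reads cannot be told apart. Their counts took different courses. Cortical Nefm stood at 38.1, 33.5 and 34.9 at P1, then at 11.5, 3.87 and 27.2, and by P14 at 5.67, 7.55, 4.73 and 2.60 (P14 against P1 -2.64 ± 0.53, log2, SE, limma adjusted p = 5.95e-04). Cortical Nefl did not pass the test, at 37.8, 37.0 and 42.6, then 49.0, 13.1 and 80.2, then 48.4, 57.2, 52.3 and 9.86 (P14 against P1 -0.16 ± 0.60, limma adjusted p = 0.834). The spread of Nefl widened after P1, and its P14 values ran from 9.86 to 57.2. In hippocampus Nefl was nearly absent at P1, at 2.14, 0.446 and 4.92, which are 15 reads in all. It then stood at 19.3, 40.04 and 59.6 at P7, a rise of 3.63 ± 0.73 (limma adjusted p = 0.00442), and at 5.37, 7.72 and 19.7 at P14. The 3 P7 libraries were above all P1 libraries. In olfactory bulb Nefm fell from 19.7, 26.9 and 18.8 at P1 to 3.98, 0 and 4.17 at P14 (-2.93 ± 0.80, limma adjusted p = 0.00883), and Nefl ranged from 1.99 to 29.5 with no call. Nefh, the heavy subunit of mature axons, stayed between 0 and 13.4 in the 28 libraries of P1 to P14.

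**Figure D1:**
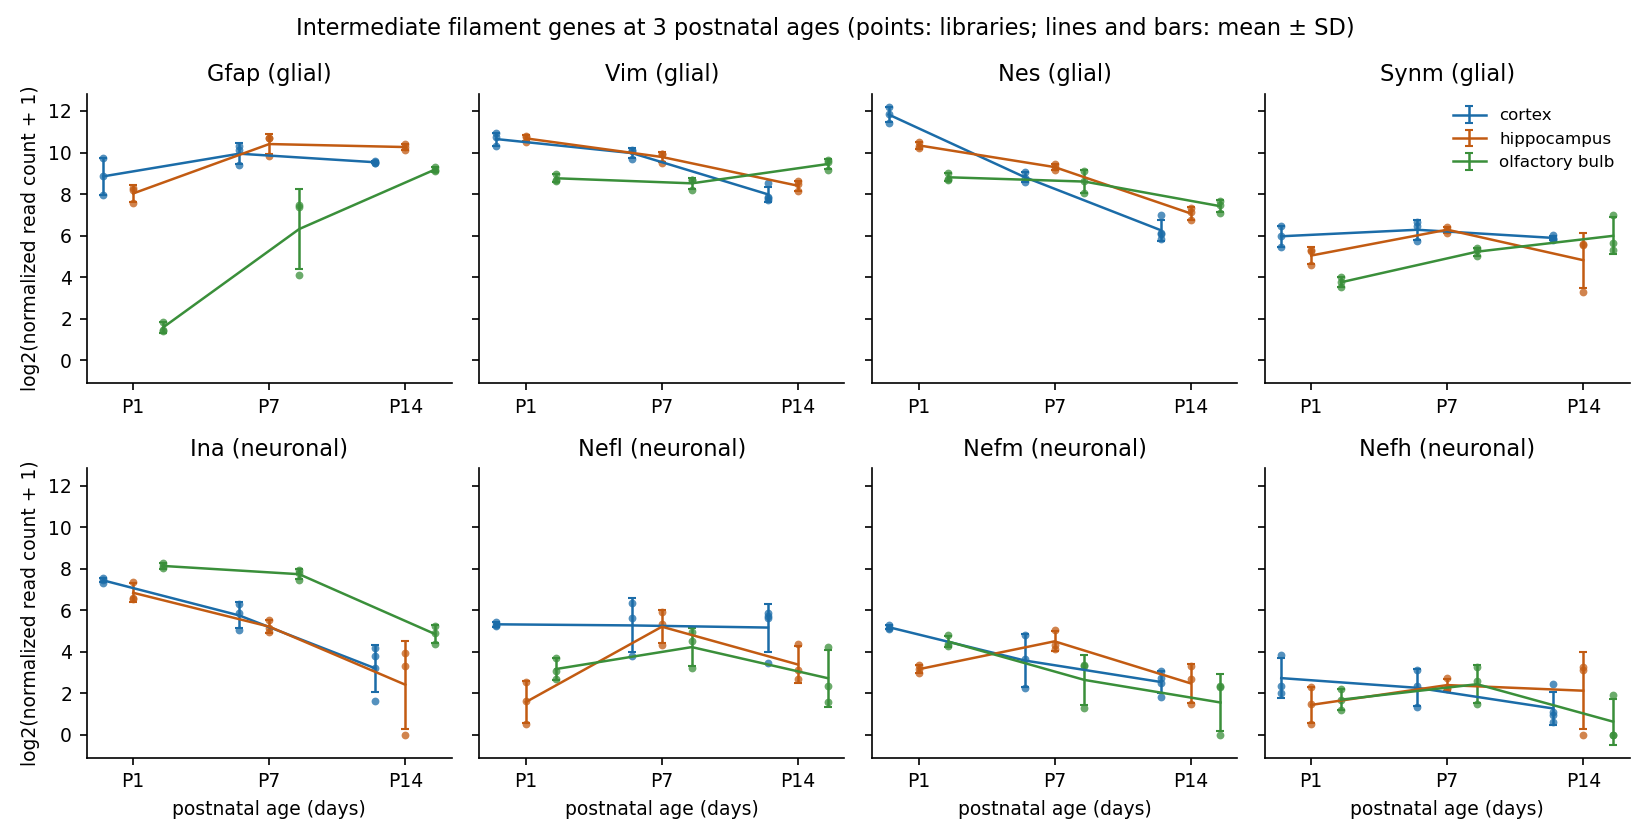
Log2(normalized read count + 1) of the 8 filament genes at P1, P7 and P14, with a point per library and lines with bars for mean and SD (3 libraries per group, 4 for cortex P14). Gfap climbs from 14 reads in all in olfactory bulb at P1, Nes and Ina come down in every region, and Vim comes down in cortex and hippocampus but stands higher at P14 than at P1 in olfactory bulb.

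The single steps differed in number between regions. From P1 to P7, 5 of 7 tested members were called in cortex (Gfap higher, Vim, Nes, Ina and Nefm lower, against 33.7% of all genes, 15.6% higher and 18.1% lower). The hippocampus had 4 of 7 (Gfap and Nefl higher, Vim and Nes lower, against 18.1% of all genes, 11.2% higher and 6.92% lower). The olfactory bulb had Gfap alone, against 10.6% of all genes (7.59% higher, 2.98% lower). Libraries of P1 and P7 did not overlap for 53.5%, 49.9% and 47.3% of all genes. The cortical count is not firm. It was 2 or 3 when any of 5 of the 6 libraries of these ages was left out, and Nefm at this step was called in 5 of 16 alternatives. From P7 to P14, 3 of 7 were called in cortex (Vim, Nes and Ina lower, against 49.8% of all genes, 18.6% higher and 31.3% lower). The hippocampus had 4 of 7 (Vim, Nes, Ina and Nefm lower, against 30.1%, 12.5% higher and 17.7% lower). The olfactory bulb had 4 of 7 as well (Gfap and Vim higher, Nes and Ina lower, against 47%, 20.4% higher and 26.6% lower). P7 and P14 libraries did not overlap for 50.5%, 41.3% and 52.7% of all genes. The hippocampal count was 2 when any P7 library was left out. The median of all tested genes was itself below 0 from P1 to P14, at -0.27 (cortex), -0.29 (hippocampus) and -0.24 (olfactory bulb), and at -0.63, -0.80 and -0.53 when reads were scaled to the library total without Rn45s. Vim, Nes and Ina in cortex and hippocampus lay below all of these medians under every alternative run, Vim in hippocampus being the nearest at -2.14 or lower.

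On a scale per length, which lets genes be compared, Vim and Nes made up most filament transcripts of cortex at P1. Each library's reads per kilobase of the principal transcript were divided by the sum over the 8 genes. Cortical Vim held 45.9% ± 2.55, Nes 37.2% ± 0.35 and Gfap 11.4% ± 3.90 (SD, n = 3). By P14 Gfap held 64.5% ± 5.86, Vim 26.8% ± 4.85 and Nes 2.94% ± 0.90 (SD, n = 4). In hippocampus Vim led at P1 with 67.7% ± 2.98, and Gfap led at P14 with 70.99% ± 0.78 (SD, n = 3 each). In olfactory bulb at P1 the filament pool differed from the others in its neuronal portion, since Ina held 23.5% ± 2.83 beside Vim at 53.5% ± 2.41, Nes at 19.8% ± 0.60 and Gfap at 0.20% ± 0.03 (SD, n = 3). Ina still held 18.5% ± 3.78 there at P7 and 1.51% ± 0.52 at P14, when Vim (54.1% ± 5.49) stayed ahead of Gfap (37.5% ± 5.18). At these ages the other neuronal members held at most 2.82% of the pool as a group mean, which was Nefl in cortex at P14.

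**Figure D2:**
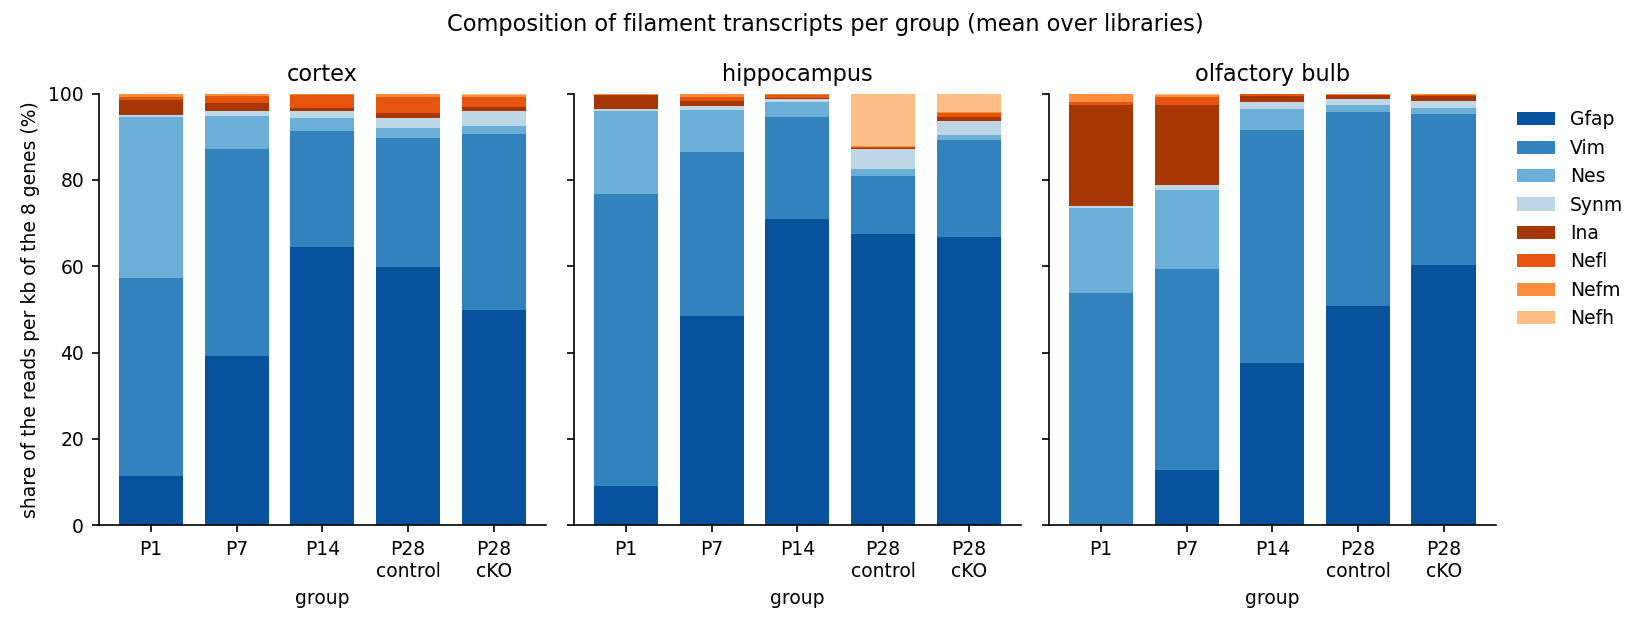
Share of each filament gene in the summed reads per kilobase of the 8 genes, as the mean over libraries in each group, with glial genes in blue and neuronal genes in orange. Gfap grows from 11.4% to 64.5% in cortex between P1 and P14, Ina fills 23.5% of the olfactory bulb pool at P1, and Nefh fills 12.1% of the hippocampus control pool at P28.

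Ratios within a library set Gfap against Vim on a scale that a single scaling factor per library cannot change. The genes behind the ratio differed by region between P1 and P14. Vim fell with no call for Gfap in cortex, Vim fell and Gfap rose in hippocampus, and both rose in olfactory bulb. Gfap over Vim was 0.303 ± 0.122, 0.990 ± 0.171 and 2.996 ± 0.703 at P1, P7 and P14 in cortex (SD, n = 3, 3 and 4). The hippocampal ratios were 0.164 ± 0.048, 1.56 ± 0.27 and 3.65 ± 0.29, and those of olfactory bulb were 0.0046 ± 0.00058, 0.347 ± 0.275 and 0.851 ± 0.211 (SD, n = 3 at each age). The 3 ages did not overlap in any region. At P28 the controls stood at 3.07 ± 2.00 (cortex, n = 4), 6.23 ± 1.22 (hippocampus, n = 2) and 1.63 ± 1.21 (olfactory bulb, n = 3), and the cKO at 1.64 ± 0.84 (n = 4), 3.99 ± 1.79 (n = 4) and 2.40 ± 1.18 (n = 3). Control and cKO overlapped in all 3 regions. In cortex the rounds of deposit differed: the first held controls at 4.03 and 5.42 and cKO at 1.63, 1.32 and 2.80, and the second held controls at 1.61 and 1.22 and a cKO at 0.834, so that cKO lay below control within each round. This was not tested. By library number in the labels, the second-round cortex libraries follow all of the first round. Hippocampus cKO replicate 4 and replicate 3 of both olfactory bulb genotypes have numbers as late, and stood at 1.91, 0.997 (control) and 1.03 (cKO). The other hippocampus libraries stood at 3.38 or higher. The other olfactory bulb libraries stood at 3.03 and 0.879 (control, the latter with little Rn45s) and 3.05 and 3.11 (cKO). Library number was not modelled.

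The contrast of the glial with the neuronal members, as the log2 of summed Gfap, Vim, Nes and Synm over summed Ina, Nefl, Nefm and Nefh, depended on the region. In olfactory bulb its values by age were 1.52 ± 0.22, 1.92 ± 0.40 and 5.30 ± 0.48 (SD, n = 3 for each age), and P14 exceeded P1 by 3.78 with no overlap between P14 and P1. In cortex it was 4.51 ± 0.46 at P1 and 4.53 ± 1.13 at P14, a change of 0.02, since both sums came down together. The cortical glial sum went from 4347 to 7564 at P1 to 1065 to 1282 at P14, and the neuronal sum from 242 to 263 to 15.1 to 86.2. In hippocampus the ratio rose by 1.26 from P1 to P14 without overlap, but the mean of the log2 values of the 4 genes, which gives each gene equal weight, changed by -0.23. The sums are led by the most abundant gene of each group and carry no test.

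**Figure D3:**
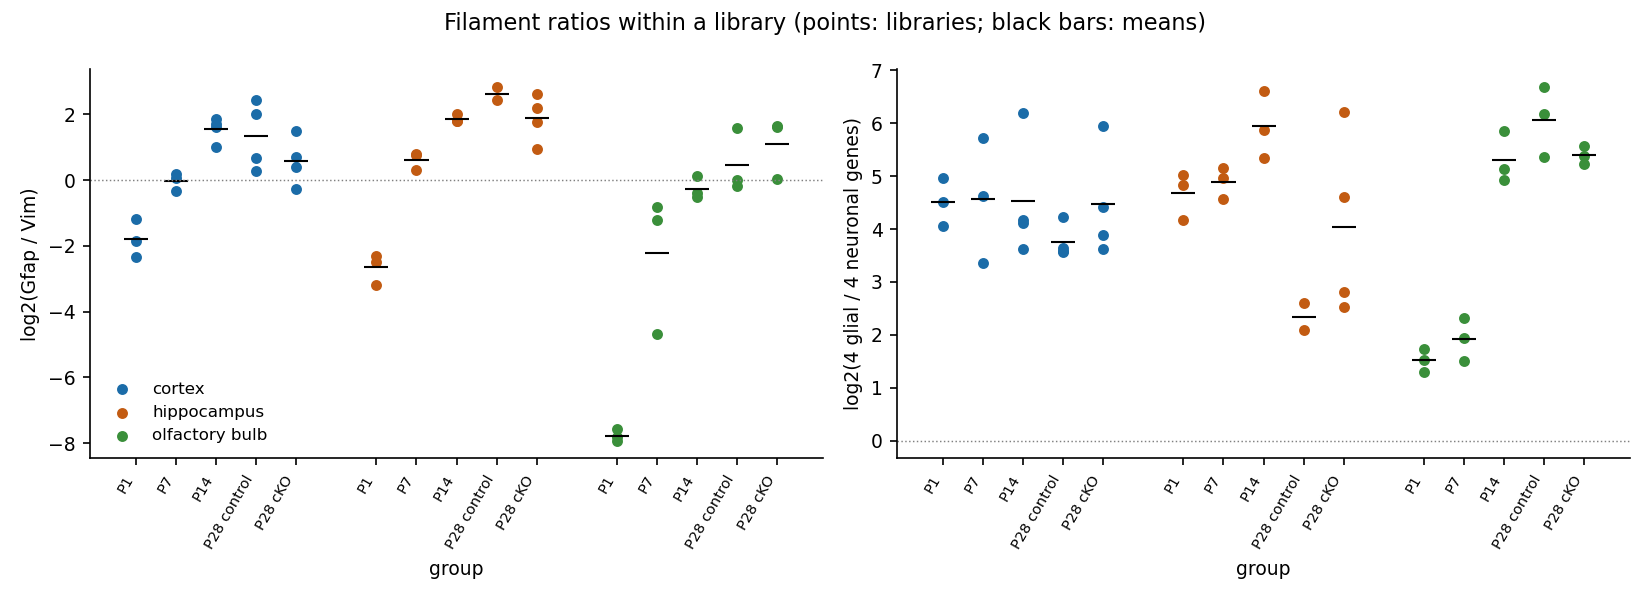
Log2 of Gfap over Vim (left) and of the 4 glial over the 4 neuronal filament genes (right) within each library, by region and group, with black bars for means and a dotted line at equal amounts. Gfap over Vim climbs from P1 to P14 in all 3 regions. Between these ages glial over neuronal genes climbs by 3.78 in olfactory bulb and changes by 0.02 in cortex. The hippocampus P28 controls are low at 2.35, and without Nefh in the sum they are at 6.76.

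Members were also compared by how they varied over the 28 libraries of P1 to P14, with each table centred on its own mean. Nes and Ina had the highest correlation (r = 0.86), a glial and a neuronal member, followed by Vim and Nes (0.85), and within the tables Nes and Ina reached 0.92, 0.91 and 0.92 in cortex, hippocampus and olfactory bulb. Vim and Nes correlated at 0.95 and 0.97 in cortex and hippocampus and at -0.65 in olfactory bulb. Gfap and Synm had r = 0.69, and Gfap was negative against Ina (-0.53) and Nefm (-0.55). Nefl was close to 0 against Ina (0.08) and Nes (-0.03). The libraries share their ages, so these are descriptions with no p. Among 10436 genes, those closest to Gfap were Ppp1r3c (a glycogen-targeting phosphatase subunit, r = 0.96), Cpt1a (carnitine palmitoyltransferase, 0.96) and Plxdc2 (0.95). Closest to Vim were F2r (the thrombin receptor, 0.95), Zfhx4 (0.93) and Tmem132b (0.92), to Nes Rbm3 (a cold-induced RNA-binding protein, 0.95), Fxyd6 (0.94) and Dpysl5 (0.94), and to Ina Fam78b (0.97), Bcl11a (a neuronal transcription factor, 0.97) and Eml4 (0.96). Synm (Adamts9, 0.86, Dnah5, 0.86, and Gucy2f, 0.85), Nefm (Unc5c, a netrin receptor, 0.84, Ankrd13b, 0.80, and Grik3, 0.80) and Nefl (Adcy9, 0.74, Fam163b, 0.74, and Gda, 0.74) had looser neighbours.

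Genes that build, tie and turn over filaments were read from 4 lists. The background for their counts between P1 and P14 is the share of all tested genes called. This was 64.4% in cortex (24% higher, 40.3% lower) and 49.5% in hippocampus (21% higher, 28.5% lower). In olfactory bulb it was 56.1% (24.8% higher, 31.4% lower). Of 14 other intermediate filament genes, 5 were tested in cortex, and none rose and 2 fell between P1 and P14. In hippocampus 1 of 5 was lower, and in olfactory bulb 1 of 4 was higher and 2 lower. Lmnb1, which encodes lamin B1 of the nuclear envelope, fell in all 3, with log2 fold changes of -3.14 ± 0.19, -2.56 ± 0.43 and -2.39 ± 0.22 for cortex, hippocampus and olfactory bulb (SE, limma adjusted p = 1.14e-08, 4.08e-04 and 6.99e-06). Of 8 chaperones and turnover genes, 3 were higher and 2 lower of 6 tested in cortex, 3 higher and 1 lower of 7 in hippocampus, and 3 higher and 2 lower of 6 in olfactory bulb. Cryab, the small heat shock protein alpha-B crystallin that binds Gfap and vimentin filaments, rose by 4.23 ± 0.16, 4.03 ± 0.29 and 4.16 ± 0.75 (limma adjusted p = 1.62e-10, 5.79e-07 and 7.21e-04). Cryab is also a gene of oligodendrocytes, and the sum of 8 oligodendrocyte markers moved with it, from 339 to 393 at P1 to 15273 to 26082 at P14 (cortex), from 73.7 to 94.0 to 1614 to 2343 (hippocampus) and from 114 to 199 to 1923 to 2252 (olfactory bulb). Their part in the rise of Cryab was not tested.

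Of 7 filament linkers, which tie filaments to junctions and to the other cytoskeletons, 3 were tested in each region. Plec, which encodes plectin, fell in cortex (-1.08 ± 0.18, log2, SE, limma adjusted p = 1.16e-04), rose in olfactory bulb (2.52 ± 0.28, limma adjusted p = 2.18e-05) and had no call in hippocampus (-0.10 ± 0.27, limma adjusted p = 0.787), a difference between regions that was not tested. Of the tested members among 7 kinases that phosphorylate filament proteins, none was higher and 5 were lower in cortex. In hippocampus 3 were higher and 2 lower, and in olfactory bulb 3 were higher and 1 lower. Over all tested genes 64.4%, 49.5% and 56.1% were called in these regions. The median log2 fold change of the kinase list was -0.67, -0.11 and 0.45 in the 3 regions, beside -0.27, -0.29 and -0.24 over all genes. Cdk1, the mitotic kinase that phosphorylates vimentin and nestin, fell in cortex (-3.25 ± 0.42) and hippocampus (-3.81 ± 0.60), and in olfactory bulb it stood at 12.5 ± 4.64 at P1 and 21.9 ± 18.03 at P14 with no call (limma adjusted p = 0.437).

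At P28 no filament member was called between Gabbr1 cKO and control in any region by limma, edgeR or DESeq2. Tested were 5 members in cortex (0.00982% of all genes called by limma), 7 in hippocampus and 5 in olfactory bulb (0% of all genes called by limma in both). Over all genes edgeR called 1, 0 and 0 in the 3 regions and DESeq2 1, 1 and 22. At an unadjusted p under 0.05 limma had 2 members in cortex (Gfap and Nefl), 2 in hippocampus (Vim and Nefh) and 0 in olfactory bulb. Over all tested genes this threshold was passed by 221 of 10188, 296 of 11639 and 349 of 11539 in the same order of regions. What this test can detect is shown by Gabbr1 itself, the deleted gene. It was called in cortex (log2 fold change -3.45 ± 0.29, limma adjusted p = 4.40e-05) but not in hippocampus (-1.84 ± 0.39, limma adjusted p = 0.936) or olfactory bulb (-1.48 ± 0.33, limma adjusted p = 0.877).

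In cortex the P28 controls had Gfap at 489, 335, 334 and 255 and the cKO at 408, 173, 213 and 150. The cKO values were mostly lower, and the groups overlapped (-0.66 ± 0.30, log2, SE, unadjusted p = 0.0423, adjusted p = 1.00 in limma). With the round of deposit in the model the difference was -0.80, and within the first round alone -0.71. Nefl stood at 21.1, 31.5, 32.9 and 25.6 in control and at 7.85, 8.39, 16.0 and 17.3 in cKO, with every cKO library below every control (1.89% of all genes did not overlap). The counts behind it were 20 to 37 reads in control and 7 to 20 in cKO, and the difference of -1.16 ± 0.51 had an unadjusted p of 0.0388 and an adjusted p of 1.00 in limma. Nefm, which was under the minimum mean, stood at 6.34, 2.34, 5.48 and 7.61 against 1.12, 1.05, 0.80 and 3.84, from 1 to 11 reads. The neuron marker sum was 1715 to 2366 in control and 1744 to 2339 in cKO, and its part in the Nefl difference was not tested. Vim, Nes and Synm overlapped between genotypes, with changes of 0.11 ± 0.41, -0.68 ± 0.63 and 0.21 ± 0.42.

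In hippocampus the 2 controls had Vim at 157.2 and 181 and the 4 cKO at 219, 446, 285 and 310. All cKO libraries were above both controls, and 15% of all genes had no overlap in this comparison in either direction. The difference was 0.85 ± 0.34 (log2, SE, unadjusted p = 0.032, adjusted p = 0.936 in limma) and 0.67 without cKO replicate 2, the library with little Rn45s. Reactive astrocyte markers moved with it, summing to 344 and 454 in control and 474 to 945 in cKO over 16 genes, of which Lcn2 and Timp1 were at 0 in all 6 libraries, and their part was not tested. Gfap overlapped, at 1115 and 970 in control and 1341, 2029, 963 and 591 in cKO (0.10 ± 0.44). In olfactory bulb Gfap stood at 1418, 592 and 695 in control and 1255, 1255 and 719 in cKO (0.32 ± 0.35), and Vim at 468, 674 and 697 against 412, 403 and 698 (-0.31 ± 0.28). Both overlapped (10% of all genes did not), and without control replicate 2 the changes were 0.07 and -0.23.

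**Figure D4:**
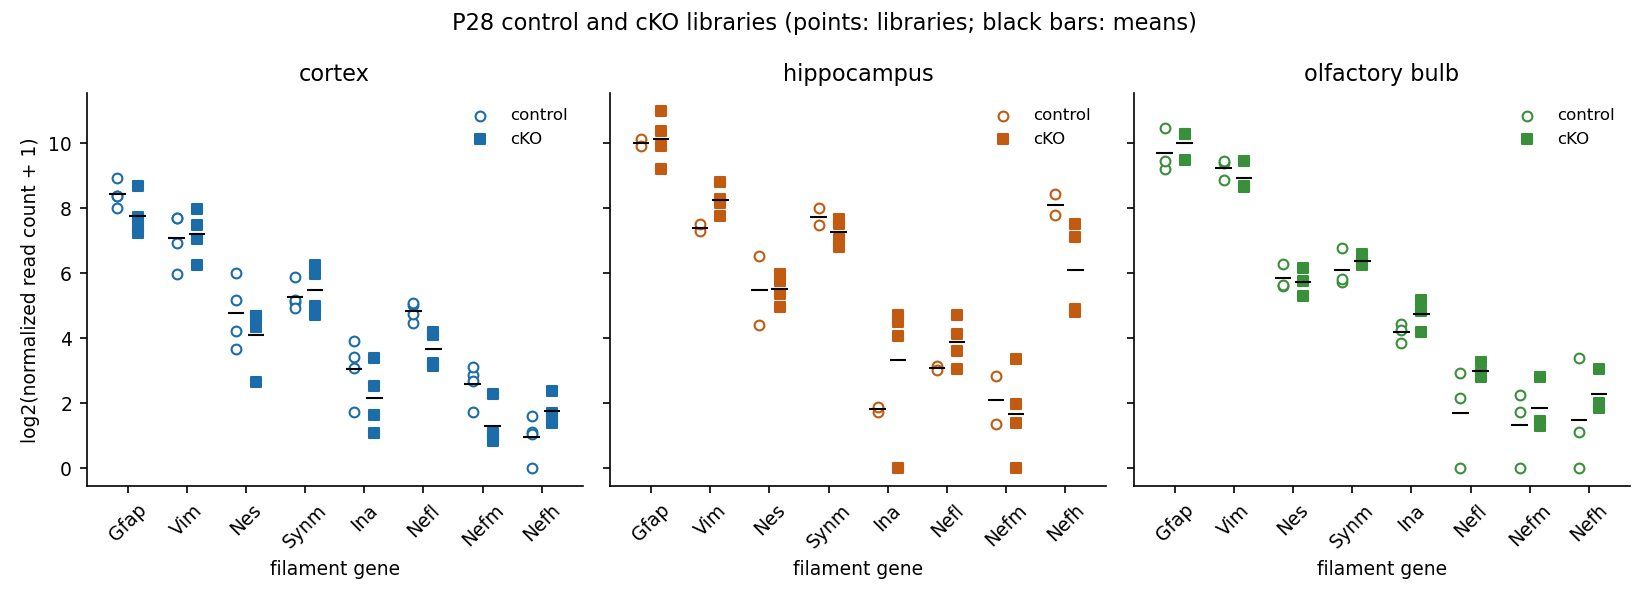
Log2(normalized read count + 1) of the 8 filament genes in P28 control (open circles) and cKO (filled squares) libraries, with black bars for means. Control and cKO separate for Nefl in cortex and for Vim and Nefh in hippocampus, with no adjusted call, and Nefh is high in hippocampus and at most 9.46 normalized reads in the other regions.

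Nefh at P28 in hippocampus stood apart from all other values of the gene. It held 350 and 219 normalized reads in control and 27.1, 28.9, 182 and 139 in cKO, from 20 to 448 reads, while the 42 libraries of all other groups ranged from 0 to 13.4. Its partners did not go with it, since Nefl stood between 7.12 and 25.4 and Nefm between 0 and 9.24 in the same 6 libraries. In RPM of a library total without Rn45s, Nefh went from 1.53 at P14 to 92.6 in the P28 control, a ratio above that of 99.9% of 11314 genes (tables scaled separately, no test). Synm went from 9.59 to 70.7 on the same scale. Of 3 neighbouring genes, Nipsnap1 stood at 40.2 ± 31.7 in P28 control (n = 2) and 4.55 ± 6.94 at P14 (n = 3). Ap1b1 stood at 205 ± 13.3 and 93.0 ± 48.01, and Thoc5 at 28.3 ± 0.22 and 10.6 ± 3.92.

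Genes of the choroid plexus, the secretory epithelium that borders the hippocampus in the ventricle, were also high in these 6 libraries. The 7 markers Ttr, Folr1, Kl, Clic6, Kcnj13, Kcne2 and Sostdc1 were listed after the Nefh values were seen. They were detected in all 6, at sums of 141975 and 69687 in control and 51764, 12490, 73638 and 129057 in cKO in replicate order. Elsewhere the sum was 0 to 7792 in cortex and olfactory bulb groups, and in hippocampus 21.8 to 63.4 at P1, 33.2 to 991 at P7 and 4095 to 8543 at P14. The keratin genes Krt8 and Krt18, simple-epithelium filaments, and the desmosomal linker Dsp also stood high, with Krt18 at 257 and 201 in control and 125, 10.1, 179 and 136 in cKO, and Dsp at 299 and 135 against 117, 27.4, 212 and 134. Dsp is also a marker of dentate granule neurons, and it stood at 81.7 in olfactory bulb P28 control replicate 2, where the choroid sum was 30.6. The other granule neuron markers looked at were Prox1, C1ql2 and Calb1. In the 6 hippocampus P28 libraries they stood at 66.8 to 292, 0 to 4.45 and 0 to 16.9. Hippocampal Prox1 had been 238 to 256 at P1 and 88.1 to 179 at P14. At P14 hippocampal Krt18 had been 4.30, 13.2 and 14.3. The orders matched only in part. Control replicate 1 was highest in Nefh, Krt18, Dsp and the choroid sum, and cKO replicate 2 was lowest in the last 3. Nefh was lowest in cKO replicates 1 and 2, at 27.1 and 28.9 from 28 and 20 reads, which are too close to rank. By the choroid sum, most of which was Ttr, cKO replicate 4 was next to highest but had less Nefh than cKO replicate 3. Without Ttr the sums were 14283 and 7827 in control and 5053, 2873, 8936 and 7583 in cKO, in replicate order. On that scale cKO replicate 4 lay below cKO replicate 3, as in Nefh, whereas cKO replicate 3 lay above control replicate 2, unlike in Nefh. The part of choroid plexus RNA in the Nefh and Synm levels was not tested.

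**Figure D5:**
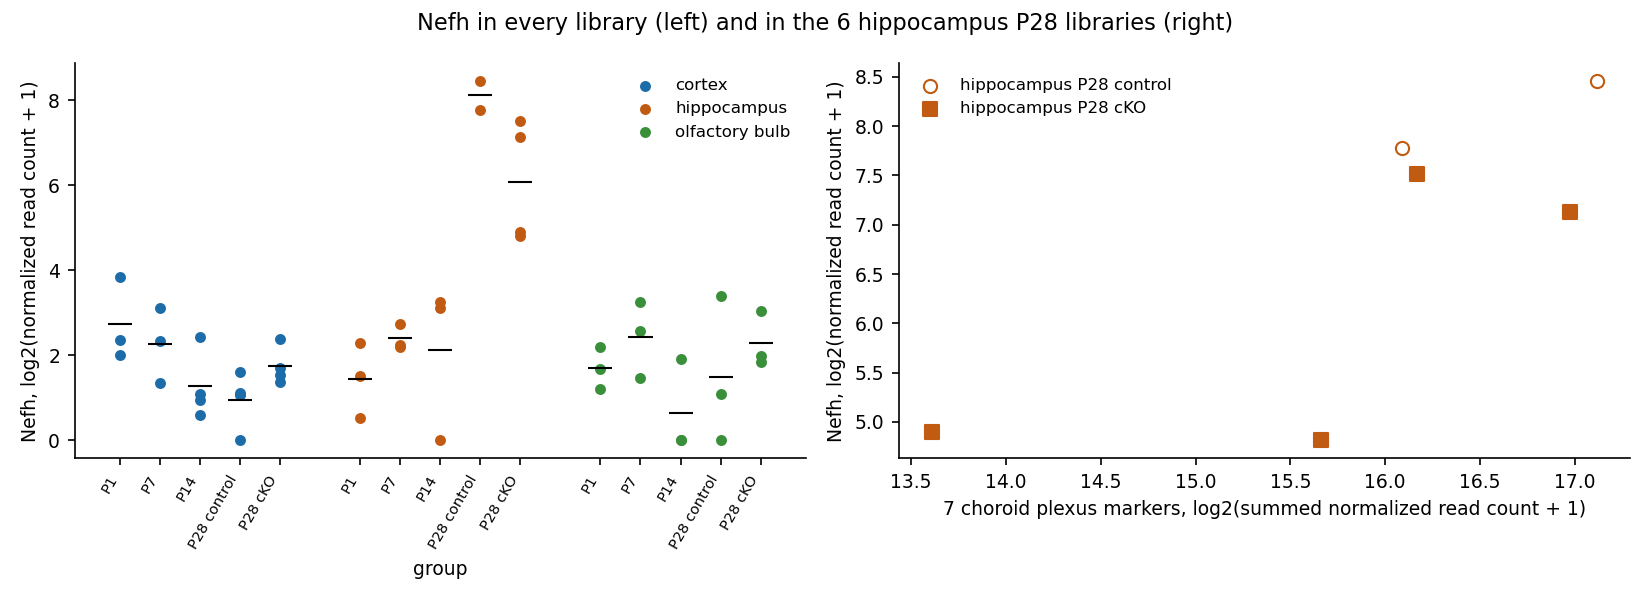
Nefh as log2(normalized read count + 1) in every library by group, with black bars for means (left), and in the 6 hippocampus P28 libraries against the log2 of the summed counts of 7 choroid plexus markers (right). The hippocampus P28 libraries hold 27.1 to 350 normalized reads of Nefh where all others hold at most 13.4, and the library with the lowest marker sum is among the lowest in Nefh.

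Nefh made up most of the neuronal sum in the hippocampus controls at P28. Its log2 fold change of cKO against control was -2.03 ± 0.78 (SE, unadjusted p = 0.0279, adjusted p = 0.936 in limma), with both controls above all cKO libraries, and -1.63 without cKO replicate 2. The log2 ratio of glial to neuronal members was 2.35 ± 0.35 in control (n = 2) and 4.03 ± 1.71 in cKO (n = 4), a difference of 1.69, or 0.96 without cKO replicate 2. Without Nefh in the sum the difference was -0.80. In cortex the same difference was 0.71 and in olfactory bulb -0.67, and control and cKO overlapped in all 3 regions.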

How the data were processed

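The deposited values are read counts per gene that the authors divided by 1 size factor per library, which makes them normalized counts (a signal scale), and 6 tables were scaled separately. Per the submitters' processing notes, STAR 2.5.0a, DESeq2 1.20.0, FastQC and MultiQC were used with mm10. The counting program, annotation and strand setting are not given in the sources used here. Libraries were made with a low-input kit, per the labels' protocols. Dividing by the smallest step gave whole reads for 100% of values in all 48 libraries.

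Normalized counts were compared with limma 3.58.1 (R 4.3.3) on log2(value + 1), for genes with a table mean of at least 10, with all ages of a region in a single fit, and p-values were Benjamini-Hochberg adjusted over all genes. The fit was run on simulated counts with the same spread setting for every gene, which does not show its power in these libraries. edgeR 4.0.16 and DESeq2 1.42.0 on recovered reads, other pseudocounts, filters, scalings and left-out libraries were alternatives. Members and lists were chosen with earlier results of these data known. Named list genes are the largest called rises and falls from P1 to P14, with Dsp, Krt8 and Krt18 named after their values were seen. The result of 1 list gene is not reported here. Ratios carry no test.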

Additional observations from a re-analysis of the deposited data

Results flagged for a closer look

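In 4 groups of 4 libraries, 32 values of members were screened for a library far from the others, and chance flags about 1 in 20 such groups. Cortex P14 replicate 3 was high in Nes (128, others 57.2 to 68.0) and in Vim (366, others 211 to 233). Cortex P14 replicate 2 was high in Nefh (4.40, others 0.519 to 1.13), and cortex P28 cKO replicate 4 in Nefm (3.84, others 0.799 to 1.12), both from few reads.

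Some members moved in opposite directions in different regions, with every library of a group on one side, and the difference between regions was not tested. Vim from P7 to P14 changed by -1.99 (cortex), -1.38 (hippocampus) and 0.93 (olfactory bulb) on the log2 scale, and from P1 to P14 by -2.66, -2.28 and 0.68. Nefm from P1 to P7 moved by -1.60, 1.34 and -1.85 in the same order of regions, of which only the cortical change was called.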

How the results depend on the processing

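No called member changed direction under any alternative run. Counts of called members moved by over 1.5 times as follows, and smaller moves were a range of 3 to 5 for hippocampus P1 to P14, 4 to 5 for olfactory bulb P7 to P14 and 4 to 6 for olfactory bulb P1 to P14. For cortex P1 to P7 (5), a minimum mean of 100 left 3, limma without the trend 1, and leaving out libraries gave 2 to 4. For cortex P7 to P14 (3), scaling to the library total without Rn45s, chosen after seeing the data, gave 6. For cortex P1 to P14 (4), the minimum mean of 100 left 2, which removes low genes. For hippocampus P1 to P7 (4), fitting the 2 ages alone gave 7. For hippocampus P7 to P14 (4), the minimum mean of 100 and the 2 ages alone each gave 2, and leaving out libraries 2 to 6. For olfactory bulb P1 to P7 (1), quantile normalization and the 2 ages alone gave 3, edgeR 2 and DESeq2 2. With the mean of log2 values, the glial to neuronal change from P1 to P14 was -0.23 in hippocampus and 4.21 in olfactory bulb, and at P28 in hippocampus 0.16. Without Nefh it was -0.80 there. Causes were not tested beyond what each alternative removes. No paired analysis was possible because the labels carry no replicate numbers. The P28 groups held 2 to 4 libraries, and members under about 20 reads are limited by depth.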
